A study of Homo sapiens with 8 samples.

Results

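Long intergenic non-coding RNA (lincRNA) genes are the subject here: genes that GENCODE release 29 types as lincRNA and that had at least 50 raw reads in total over the 8 libraries of the study. Of the 67060 gene rows of the count table, 7518 were lincRNA genes. No read was counted for 2829 of them, 3001 had fewer reads than the rule asks, and 1688 reached 50. Leaving out NEAT1, MALAT1, H19, the MEG genes and the SNHG genes removed 10, so that 1678 lincRNA genes remained, on 23 chromosomes. They were chosen by their total raw read number, which is not a finding. The 155 members just inside the threshold, with totals up to 59, had median sums of 25 reads in the GFP libraries and 29 in the ERRg libraries. The 154 lincRNA genes just outside it, with totals from 40 to 49, had 20.5 and 23.5.

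The study used SH-SY5Y, an established human neuroblastoma cell line with neuron-like traits. All cells received an adenovirus (0.5 µl, at 80% confluence) and RNA was taken after 48 h. In 4 libraries the virus carried BioID-GFP-NLS, a biotin ligase fused to green fluorescent protein with a nuclear localization signal (GFP libraries). In the other 4 it carried BioID-Flag-ERRg, the same kind of ligase fused to the Flag-tagged estrogen-related receptor gamma, an orphan nuclear receptor (ERRg libraries). Both groups thus held virus and ligase, and no library from uninfected cells was used here. Ribosomal RNA was removed from total RNA and the strand of each read was kept, so RNA without a poly(A) tail was also captured. Nothing in the labels says whether the 4 libraries of a group came from separate cultures. P-values measure the spread between these libraries, which may be technical.

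LincRNAs are transcribed by RNA polymerase II, mostly capped and often spliced, but encode no known protein. Many are short-lived in the nucleus, where the RNA exosome degrades them, and a large share starts at promoters that also fire a coding gene in the opposite direction. Well-studied members act as decoys for proteins or microRNAs, as regulators of neighbouring genes, or only as the precursor from which a microRNA is cut. A level in bulk RNA does not tell whether more cells held an RNA or each cell held more of it.

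The GFP libraries held 27668958 to 35520672 reads assigned to genes and the ERRg libraries 21019138 to 23007457. ESRRG, the gene of the overexpressed receptor, stood at 32.7 to 37.1 CPM (counts per 1e6 gene reads, TMM-scaled) in the GFP libraries and 711 to 888 CPM in the ERRg libraries, which fits the labels; reads of the viral copy count here. Reads assigned to no counted feature, which can include reads in introns, are given as shares of all read records. They made up 20.9 ± 3.58% in the GFP libraries and 46.7 ± 1.31% in the ERRg libraries (SD, n = 4 each). Ambiguous reads made up 12.1 ± 1.46% in the GFP and 5.44 ± 0.415% in the ERRg libraries. Reads without a unique placement made up 11.9 ± 1.33% and 6.4 ± 0.449%. All these shares moved with the groups without overlap, and their part in the lincRNA results was not tested. Of 10 noradrenergic neuroblastoma markers, 8 were at 1 CPM or more in every library, while TH and CHGA were listed at 0. Blood markers stood below 1 CPM everywhere, as did SOX10 and S100B of Schwann cells. The fibroblast markers, 5 of 6 of them at 1 CPM or more in every library, summed to 1569 to 1759 CPM in the GFP and 891 to 985 CPM in the ERRg libraries. The noradrenergic markers summed to 756 to 871 CPM and 434 to 516 CPM. Of 5 epithelial markers 3 were at 1 CPM or more in every library, and the 5 summed to 240 to 320 CPM and 172 to 243 CPM.

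The starts of 4 lincRNA genes show the kinds of promoter that the results below divide. RefSeq windows (GRCh38.p14) from 250 bases before to 50 after the annotated start are printed 5′ to 3′ on the gene's strand, with every CpG in capitals. LINC02024 (chr3:117690876-117691175, minus strand) and LINC00882 (chr3:107240589-107240888, minus strand) lie over 50 kb from any coding gene and rose. BAIAP2-DT (chr17:81034670-81034969, minus strand) and PSMG3-AS1 (chr7:1569823-1570122, plus strand) start head to head with the coding genes BAIAP2 and PSMG3 and fell.
LINC02024: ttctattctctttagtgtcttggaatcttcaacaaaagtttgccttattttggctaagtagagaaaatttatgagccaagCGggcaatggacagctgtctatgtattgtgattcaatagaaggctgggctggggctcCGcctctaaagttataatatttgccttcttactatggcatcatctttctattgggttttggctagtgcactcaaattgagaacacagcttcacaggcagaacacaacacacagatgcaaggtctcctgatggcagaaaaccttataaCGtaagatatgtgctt
LINC00882: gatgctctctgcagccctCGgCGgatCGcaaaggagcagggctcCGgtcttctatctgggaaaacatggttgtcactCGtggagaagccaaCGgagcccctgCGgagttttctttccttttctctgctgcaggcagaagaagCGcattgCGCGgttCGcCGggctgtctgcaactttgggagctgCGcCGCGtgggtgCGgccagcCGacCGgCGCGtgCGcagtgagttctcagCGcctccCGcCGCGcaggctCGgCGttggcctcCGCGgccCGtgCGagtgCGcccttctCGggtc
BAIAP2-DT: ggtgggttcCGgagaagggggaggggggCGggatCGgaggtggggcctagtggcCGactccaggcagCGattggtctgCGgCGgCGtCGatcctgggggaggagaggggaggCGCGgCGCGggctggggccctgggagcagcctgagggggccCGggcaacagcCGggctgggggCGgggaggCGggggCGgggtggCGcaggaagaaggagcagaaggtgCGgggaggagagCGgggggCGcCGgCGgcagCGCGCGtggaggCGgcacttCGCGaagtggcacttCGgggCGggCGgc
PSMG3-AS1: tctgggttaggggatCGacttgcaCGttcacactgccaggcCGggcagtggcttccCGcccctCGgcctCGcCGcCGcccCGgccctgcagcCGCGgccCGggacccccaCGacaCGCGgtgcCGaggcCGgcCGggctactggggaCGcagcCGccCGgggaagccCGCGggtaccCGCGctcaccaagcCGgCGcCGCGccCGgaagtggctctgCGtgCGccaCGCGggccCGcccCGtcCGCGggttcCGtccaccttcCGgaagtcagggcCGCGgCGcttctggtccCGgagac
The first window holds 3 CpGs, LINC00882 and BAIAP2-DT hold 33 each, and PSMG3-AS1 holds 44. LINC02024 read 4.07, 2.93, 2.91 and 4.36 CPM in the GFP libraries and 18.4, 18.3, 13.4 and 13.7 CPM in the ERRg libraries. LINC00882 read 2.82, 2.001, 1.84 and 2.02 CPM against 8.56, 10.3, 10.8 and 9.07 CPM. Both RNAs were higher in every ERRg library, by a log2 fold change of 2.16 ± 0.15 (SE) and 2.15 ± 0.15 (SE) (edgeR adjusted p = 2.32e-10 and 2.35e-10). BAIAP2-DT read 35.6, 36.8, 37.3 and 31.6 CPM in the GFP libraries and 11.8, 12.9, 13.1 and 13.9 CPM in the ERRg libraries. PSMG3-AS1 read 20.1, 21.1, 21.2 and 20.8 CPM against 6.30, 7.96, 8.95 and 10.2 CPM. These fell in every ERRg library, with log2 fold changes of -1.45 ± 0.10 (SE) and -1.32 ± 0.12 (SE) (edgeR adjusted p = 1.52e-10 and 6.3e-09). Their coding partners also fell, BAIAP2 with a log2 fold change of -1.87 and PSMG3 with -1.42. With offsets for GC content, exon length and gene span, described below, the falls were smaller, -0.45 for BAIAP2-DT, -0.25 for PSMG3-AS1, -0.80 for BAIAP2 and -0.67 for PSMG3. LINC02024 had 2.10 and LINC00882 1.95 in that fit. All 4 genes were chosen for display after their values were seen.

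Some members are the precursor transcripts of microRNAs. The mature microRNAs below come from hosts that moved and are given from RefSeq (GRCh38.p14), 5′ to 3′, with the seed, bases 2 to 8, in capitals; the mature forms themselves were not measured.
hsa-miR-503-5p (host MIR503HG, chrX:134546371-134546393, minus strand): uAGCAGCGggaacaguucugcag
hsa-miR-181a-5p (host MIR181A1HG, chr1:198859108-198859130, minus strand): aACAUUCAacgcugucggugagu
hsa-miR-181b-5p (host MIR181A1HG, chr1:198858925-198858947, minus strand): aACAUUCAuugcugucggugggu
hsa-miR-221-3p (host MIR222HG, chrX:45746180-45746202, minus strand): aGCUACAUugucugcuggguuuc
hsa-miR-222-3p (host MIR222HG, chrX:45747036-45747056, minus strand): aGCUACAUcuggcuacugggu
hsa-let-7i-5p (host MIRLET7IHG, chr12:62603691-62603712, plus strand): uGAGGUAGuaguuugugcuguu
hsa-let-7b-5p (host MIRLET7BHG, chr22:46113691-46113712, plus strand): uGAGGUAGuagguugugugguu
hsa-miR-4435 (host MIR4435-2HG, chr2:111321061-111321082, minus strand): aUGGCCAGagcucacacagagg
hsa-miR-4307 (host MIR4307HG, chr14:26908697-26908715, plus strand): aAUGUUUUuuccuguuucc
The pair miR-181a/b shares the seed ACAUUCA, the pair miR-221/222 shares GCUACAU, and let-7i and let-7b share GAGGUAG although they come from different hosts.

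Of the lincRNA genes 33.3% were higher and 19.8% lower with ERRg, beside 33.6% and 33.7% of all genes with 50 or more reads. Those genes passed the same minimum but were not matched in read number to members, whose median total was 171 reads. Fitted without a filter on low counts, 558 of all 1678 members were higher in the ERRg libraries at an edgeR adjusted p under 0.05, and 332 were lower. The genes with 50 or more reads in that fit numbered 24393. Members had a median log2 fold change of 0.25, and those genes one of 0.07. With edgeR's filter, which keeps genes above 0.395 CPM in at least 4 libraries, 1322 members were tested and 356, with totals from 50 to 110 reads, were not. Of the 1322, 542 were higher (41%, against 38.8% of all 21993 genes tested), 287 were lower (21.7%, against 35.9%) and 493 were not called. Either direction was called for 74.7% of all genes. The filter does not treat the groups alike: 331 members exceeded the floor in all 4 ERRg libraries but not in all 4 GFP libraries, 96 the reverse, and 790 in all 8. The 472 members whose ERRg libraries all lay above all GFP libraries stand beside 33.9% of all genes, and the 246 in the opposite order beside 34.6%. In a stricter edgeR test, against a log2 fold change of 1, 156 members were higher (7.69% of all genes were) and 45 lower (10.5%).

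Members took a larger share of gene reads in the ERRg libraries. Shares of 0.478, 0.392, 0.438 and 0.470% were measured in the GFP libraries and 0.856, 0.851, 0.815 and 0.823% in the ERRg libraries. The groups did not overlap. Without the 10 members with most reads the share was 0.319 ± 0.0249% and 0.539 ± 0.0155% (SD, n = 4 each). The difference thus did not rest on those 10 alone. Their part of member reads was 28.2 ± 0.885% in the GFP and 35.5 ± 0.408% in the ERRg libraries. Over the tested members the median log2 fold change was 0.34, over all genes tested 0.09, over 13433 coding genes -0.30, over 2231 antisense genes 0.56 and over 1672 processed pseudogenes 1.05. LincRNA genes thus lay between coding and antisense genes. When each library's dependence on GC content, exon length and gene span was fitted over all annotated genes and entered as offsets, the median over members was 0.07, with 396 higher (30%, against 30.8% of all genes) and 324 lower (24.5%, against 32.3%). With library totals in place of TMM factors it was 0.74, and that of all genes 0.50.

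The largest rises, among members of at least 1 CPM on average, were from 5.13-fold to 8.61-fold. LINC01435, a 7-exon gene at chr10:107694973-108197849 (GRCh38, 530439 bases from the coding gene SORCS1), read 0.571, 0.345, 0.576 and 0.782 CPM in the GFP libraries and 4.81, 4.51, 5.17 and 5.000 CPM in the ERRg libraries. Its lowest ERRg library lay above its highest GFP library by more than the spread of either group (log2 fold change 3.11 ± 0.21 (SE), edgeR adjusted p = 1.55e-10), while SORCS1 fell by 0.33 on that scale. LINC00472, 5 exons at chr6:71344344-71420769 and the most abundant of these 10, read 20.98, 12.9, 15.5 and 24.3 CPM against 112, 99.4, 89.8 and 89.03 CPM. It rose from 18.4 ± 5.16 to 97.6 ± 10.8 CPM (SD, n = 4 each), a log2 fold change of 2.41 ± 0.15 (SE) (edgeR adjusted p = 7.42e-11). Between it and OGFRL1, AL136164.1, a gene of low counts picked after its values were seen, went from 0 to 10 reads per GFP library to 36 to 48 per ERRg library.

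Several of the largest rises overlap or adjoin a coding gene that changed less. SEMA5A-AS1 (chr5:9511333-9518086) overlaps SEMA5A, which encodes a semaphorin that guides axons, and read 0.464, 0.414, 0.216 and 0.288 CPM against 2.30, 2.25, 1.89 and 2.76 CPM. Its log2 fold change was 2.71 and that of SEMA5A 0.52. ENOX1-AS1, overlapping ENOX1, rose by 2.62 where ENOX1 rose by 0.41. AL136964.1, 3648 bases from FAM155A, rose by 2.50 where FAM155A rose by 0.58 (-0.01, not called, with the offsets, where AL136964.1 had 2.01). AP002833.1 overlaps KIRREL3, a cell adhesion gene, and rose by 2.37 where KIRREL3 fell by 0.43. With the offsets described above KIRREL3 turned to a call of higher (log2 fold change 0.36). The coding gene had the smaller fold change in each of these 4 pairs. These lincRNA genes were chosen for the largest rises, so that order follows from the choice and describes no other pairs. CCDC54-AS1 (2.43), DIRC3-AS1 (2.36), LINC01191 (2.73) and AC092691.3 (2.47) complete the list. LINC01191 is uncertain, because 52.4% of its sequence has an identical copy in AC110769.1 and shared reads could be split between them.

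The largest falls were, but for LINC01220, genes known only by clone names. AC007952.4, 1 exon at chr17:19112000-19112636, read 5.46, 8.59, 4.79 and 6.42 CPM in the GFP libraries and 0.823, 0.601, 1.72 and 0.935 CPM in the ERRg libraries, a log2 fold change of -2.63 ± 0.25 (SE) (edgeR adjusted p = 7.57e-09). All of its sequence matches SNORD3B-2 at 98.74% identity, a copy of the U3 small nucleolar RNA that processes ribosomal RNA. Its reads may therefore not be separable from those of U3. The gene SNORD3B-2 itself had a log2 fold change of -2.40. AC254633.1, 1169 bases from DHRS3, read 6.39, 7.56, 7.27 and 5.97 CPM against 1.52, 0.939, 2.18 and 1.67 CPM, a log2 fold change of -2.11; DHRS3, a retinal reductase, had -1.50. AL162727.1, 21485 bases from RGS3, read 3.75, 2.93, 2.81 and 3.91 CPM against 0.658, 1.05, 0.862 and 0.569 CPM, a log2 fold change of -2.08, and RGS3, a regulator of G protein signalling, had -1.55. Both neighbours were lower too, with the offsets by less (DHRS3 -0.81, RGS3 -0.87).

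For AL021918.3, AL355001.2 and AC245014.3 the nearest coding gene was higher. AL021918.3, 18304 bases from the zinc finger gene ZNF184, read 5.99, 11.7, 7.05 and 9.76 CPM against 2.06, 1.69, 2.75 and 2.52 CPM, a log2 fold change of -1.94 where ZNF184 had 0.66. AL355001.2 starts head to head with ZMYM5, 222 bases away, and had -1.91 where ZMYM5 had 0.43 (0.05, not called, with the offsets). LINC01220, 12174 bases after FOS, the immediate early transcription factor gene, had -1.83, and FOS was lower too (-0.57; -0.03, not called, with the offsets). AL592295.4 (-2.17), AC245014.3 (-1.95), AC092368.3 (-1.91) and AC135782.1 (-1.89) complete the list. AC245014.3 lies 8438 bases from NBPF20, which had 0.45. Of the AC245014.3 sequence 47.3% matches RNVU1-14 at 100% identity, so its reads could be mixed with those of RNVU1-14. AC092368.3 is uncertain, because 99.1% of it matches RAB43 at 99.75% identity. With the offsets all 20 of these movers kept their call and direction; 7 values moved by over 1.5 times, LINC01191 to 3.39, AC092691.3 to 1.37, AP002833.1 to 1.50, DIRC3-AS1 to 1.33, AL021918.3 to -2.83, AL355001.2 to -1.05 and AC135782.1 to -1.22.

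**Figure D1:**
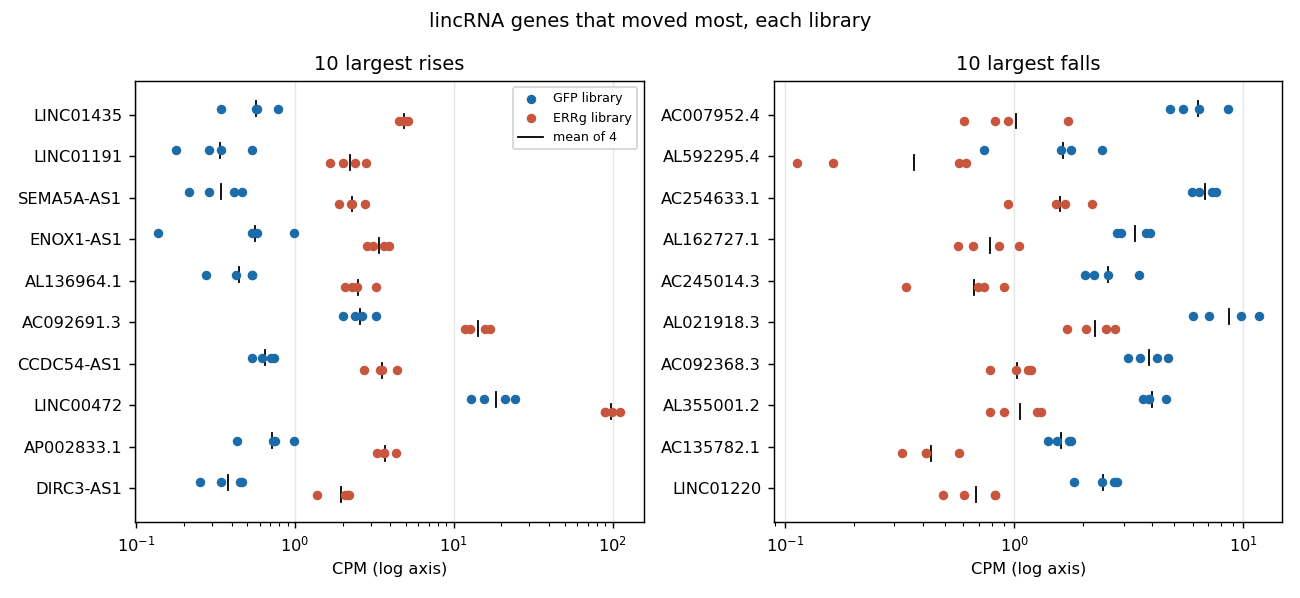
CPM (log axis) of the 10 lincRNA genes with the largest rises (left) and the 10 with the largest falls (right); each point is 1 library, blue for GFP and red for ERRg, and each black tick the mean of 4. Only genes whose groups do not overlap could be chosen, and LINC00472 is the only one of the 20 above 20 CPM in any library.

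A stretch of chromosome 3 without coding genes, between LSAMP, a neuronal adhesion gene, and IGSF11 (1761 kb, chr3:117139390-118900556), held 3 tested members, and all rose. LINC03051 read 7.24, 3.62, 4.61 and 5.60 CPM in the GFP and 21.97, 24.00, 20.1 and 20.6 CPM in the ERRg libraries. AC092691.3, on the opposite strand, read 3.25, 2.001, 2.66 and 2.39 CPM against 16.99, 15.7, 11.8 and 12.6 CPM. With LINC02024 above, the log2 fold changes were 2.04 ± 0.15 (SE), 2.47 ± 0.16 (SE) and 2.16 ± 0.15 (SE). LINC02024 lies within the span of LINC03051 on the same strand, and AC092691.3 opposite it, so the 3 are not independent loci. LSAMP rose by 0.61 and IGSF11, with 137 reads in all, had 0.02. With the offsets the 3 members kept 1.95, 1.37 and 2.10, and LSAMP had 0.04. Between KLF14 and MKLN1 on chromosome 7 all 4 tested members, LINC00513, LINC-PINT, AC016831.4 and AC058791.1, were higher, with values from 0.80 to 1.89. All tested members were also higher between CHIC1 and ZCCHC13 on chromosome X (5 of 5) and between ZNF254 and UQCRFS1 on chromosome 19 (4 of 4). In some other stretches fewer members rose. Between IRF2BP2 and TOMM20 on chromosome 1, 1 of 6 tested members was higher. Between DUSP4 and SARAF on chromosome 8, 0 of 4 were higher and 2 lower.

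Per kilobase of exon the most abundant member was NORAD, at 79.0 CPM per kb over the 8 libraries. NORAD, which holds many binding sites for Pumilio proteins, read 297, 326, 390 and 337 CPM in the GFP libraries and 531, 545, 446 and 499 CPM in the ERRg libraries, a log2 fold change of 0.58 ± 0.10 (SE) (edgeR adjusted p = 2.03e-05). It is uncertain to the extent that OVCH1-AS1 matches 86.2% of it at 95.88% identity. AC092279.1 (34.4 CPM per kb) and LINC00839 (30.5 CPM per kb), a lincRNA studied in neuroblastoma, were not called, with log2 fold changes of 0.13 ± 0.10 (SE) and 0.16 ± 0.08 (SE) (edgeR adjusted p = 0.215 and 0.079). With the offsets both were called higher (0.22 and 0.56). AC090023.1 (43.8 CPM per kb), 68161 bases from MSRB3, read 10.7, 6.80, 8.24 and 12.9 CPM against 30.2, 30.3, 26.1 and 29.9 CPM and rose by 1.60 ± 0.14 (SE), which was 0.54 with the offsets. HIF1A-AS3 (26.5 CPM per kb), antisense to the oxygen-sensing factor gene HIF1A, read 6.92, 4.90, 4.79 and 6.46 CPM against 23.5, 23.1, 19.9 and 23.1 CPM. It rose by 1.96 ± 0.13 (SE), and HIF1A by 0.89. AL356124.1 (21.2 CPM per kb), 10057 bases from the laminin gene LAMA2, rose by 1.49, and LAMA2 by 1.52.

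PVT1, which lies 53099 bases after MYC on chromosome 8 and is often co-amplified with it in cancers, moved against MYC. PVT1 read 85.3, 60.8, 72.1 and 87.7 CPM in the GFP libraries and 143, 147, 169 and 161 CPM in the ERRg libraries, a log2 fold change of 1.02 ± 0.11 (SE) (edgeR adjusted p = 3.72e-08). MYC, the proliferation factor gene, went from 44.9 ± 2.55 to 20.9 ± 1.97 CPM (SD, n = 4 each), a log2 fold change of -1.10. The groups did not overlap for PVT1, and with the offsets it had 1.35 and MYC -0.44.

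Of a list of 49 studied lincRNAs, 16 were members in the table, and 11 were higher (68.8%, against 38.8% of all genes tested), 3 lower (18.8%, against 35.9%) and 2 not called (median 0.57, against 0.09 over all genes tested). FTX and JPX, genes of the X-inactivation centre, were higher: FTX read 174, 112, 131 and 175 CPM against 380, 355, 352 and 337 CPM (log2 fold change 1.27), and JPX had 1.19. With the offsets they were 0.39 and 0.53. The pair shares annotated sequence on opposite strands (75.2% of FTX and 96.3% of JPX), so the 2 values are uncertain. NBAT1 and CASC15 are neuroblastoma-associated lincRNAs on chromosome 6. NBAT1 lies within the span of CASC15 on the opposite strand, and 11.7% of it matches CASC15 at 100% identity, so they are not independent loci. NBAT1 read 5.99, 3.86, 4.14 and 6.34 CPM against 11.8, 11.5, 10.1 and 8.37 CPM (1.04 ± 0.16 (SE)). CASC15 read 57.2, 48.4, 46.9 and 56.8 CPM against 85.7, 83.8, 84.3 and 83.8 CPM (0.69 ± 0.09 (SE)). Both rose without overlap between groups, while SOX4, a transcription factor gene upstream of CASC15, fell by 1.19. LINC-PINT (0.80), MIAT (0.60), CYTOR (0.55), LINC00662 (0.42) and CRNDE (0.29) were also higher. CRNDE starts head to head with the homeobox gene IRX5, which fell by 0.87 and with the offsets turned to a log2 fold change of 0.06, not called.

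The 3 lower members of the list were LINC00467, EPB41L4A-AS1 and DRAIC. LINC00467 read 25.8, 24.4, 23.7 and 20.6 CPM against 20.9, 19.8, 18.1 and 18.2 CPM (-0.30 ± 0.10 (SE), edgeR adjusted p = 0.0116); the groups overlapped, and with library totals in place of TMM factors the value was 0.11. EPB41L4A-AS1 (-0.57) shares 55.9% of its sequence with EPB41L4A, which overlaps it. With library totals EPB41L4A-AS1 had -0.17 and was not called. DRAIC stood at or under 1.04 CPM in every library (-1.07). LINC00461, which hosts miR-9-2, was not called (-0.03 ± 0.13 (SE)). Under the offsets the list had 8 higher and 5 lower members: CASC15 (0.02), CYTOR (-0.01) and CRNDE (-0.05) were not called, and LINC00662 (-0.18) and LINC00461 (-0.52) were lower. The CRNDE call was also lost on leaving out ERRg library 1 or GFP library 1, 3 or 4, which gave 0.22, 0.25, 0.18 and 0.18.

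**Figure D2:**
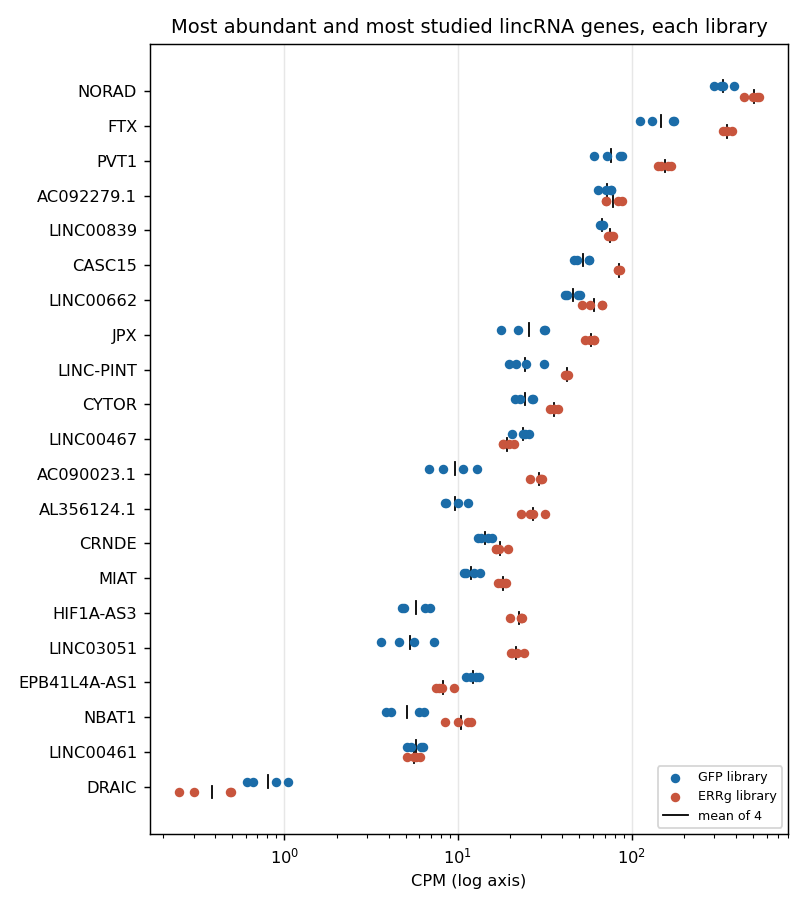
CPM (log axis) of the 8 most abundant and the 16 studied lincRNA genes (3 genes are on both lists); each point is 1 library, blue for GFP and red for ERRg, and each black tick the mean of 4. Red points lie right of the blue ones for most rows, overlap with them for AC092279.1, LINC00461 and LINC00467, and lie to the left for EPB41L4A-AS1 and DRAIC.

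Of 26 members named as hosts of microRNAs, 22 were tested. Of these 13 were higher (59.1%, against 38.8% of all genes tested), 3 lower (13.6%, against 35.9%) and 6 not called (median 0.48). MIR503HG (chrX:134543337-134546632) read 7.46, 5.24, 8.60 and 9.06 CPM in the GFP libraries and 30.04, 29.4, 27.1 and 31.4 CPM in the ERRg libraries. MIR181A1HG (chr1:198807493-198937429) read 3.46, 1.86, 2.88 and 4.77 CPM against 13.7, 14.4, 9.85 and 12.1 CPM. Both rose 3.90-fold and 3.89-fold (log2 fold change 1.96 ± 0.13 (SE) and 1.96 ± 0.19 (SE), edgeR adjusted p = 1.44e-10 and 1.37e-08), with no overlap between groups. MIR222HG, host of the miR-221/222 pair, read 27.2, 20.7, 20.8 and 30.1 CPM against 55.2, 55.1, 47.6 and 54.9 CPM (1.11 ± 0.11 (SE)). With the offsets MIR181A1HG had 1.37 and MIR4307HG 0.84. MIR4307HG rose by 1.62 from a low level of 2.07, 0.621, 1.58 and 2.80 CPM in the GFP libraries. MIR4435-2HG rose by 0.73; 63.2% of it matches CYTOR at 99.25% identity, so the reads of the 2 genes could be mixed.

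Of 4 tested hosts of let-7 microRNAs, which restrain growth-promoting messages, 3 were higher and MIRLET7BHG lower. MIRLET7IHG, 2273 bases after MON2, read 7.64, 5.76, 7.92 and 6.71 CPM against 16.7, 17.2, 13.3 and 15.4 CPM and rose by 1.16 ± 0.12 (SE), where MON2 rose by 0.65 (-0.05, not called, with the offsets, where MIRLET7IHG had 0.92). MIRLET7BHG was lower, from 65.8 ± 5.66 to 46.0 ± 8.17 CPM (SD, n = 4 each; log2 fold change -0.52, edgeR adjusted p = 0.000319). MIRLET7BHG has a GC content of 63.0%, and with the offsets it was higher by 0.62. MIRLET7A1HG (0.48) and MIR99AHG (0.37), host of let-7c, were higher, and with the offsets both were lower (-0.36 and -0.27). MIR34AHG, host of the p53-regulated miR-34a, was higher by 0.48. MIR137HG, with 0.08, and MIR9-3HG, with -0.02, hosts of microRNAs of neurons, were not called; with the offsets MIR9-3HG was higher (0.69) and MIR137HG was not called (-0.25). Over the 22 hosts the offsets gave 14 higher and 5 lower, where 30.8% and 32.3% of all genes were called.

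Members were also grouped by place relative to coding genes. A member was classed as head to head when it ran away from a coding gene of the other strand with starts within 2 kb, as after a coding gene when it began within 10 kb of that gene's 3′ end on the same strand, and otherwise by a nearest coding gene within or over 50 kb. The shares stand beside 38.8% higher and 35.9% lower over all genes tested. Of 263 tested head-to-head members, 46 were higher (17.5%) and 109 lower (41.4%, near that background), with a median log2 fold change of -0.36, which turned to 0.04 with library totals in place of TMM factors. Of 274 members over 50 kb from coding genes, 141 were higher (51.5%) and 31 lower (11.3%; median 0.56). Of the 180 members after a coding gene, 75 were higher (41.7%, near the background) and 40 lower (22.2%), with a median of 0.43. Of the 605 elsewhere within 50 kb, 280 were higher (46.3%) and 107 lower (17.7%), with a median of 0.51. The medians of these 2 classes lay nearer to 0.56 than to -0.36, but their lower shares were larger than 11.3%. On the log2(CPM + 0.5) scale, with each gene set against its mean in the GFP libraries, the median over head-to-head members was -0.27, -0.32, -0.18 and -0.25 in the 4 ERRg libraries. It was 0.45, 0.45, 0.40 and 0.38 over the members far from coding genes. The 2 classes stood apart in each of the 4 libraries. With the offsets the medians were -0.41 and 0.22, and 35 head-to-head members were higher and 107 lower. Of the members over 50 kb away 97 were then higher and 65 lower, so that their lower calls rose from 31 to 65.

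**Figure D3:**
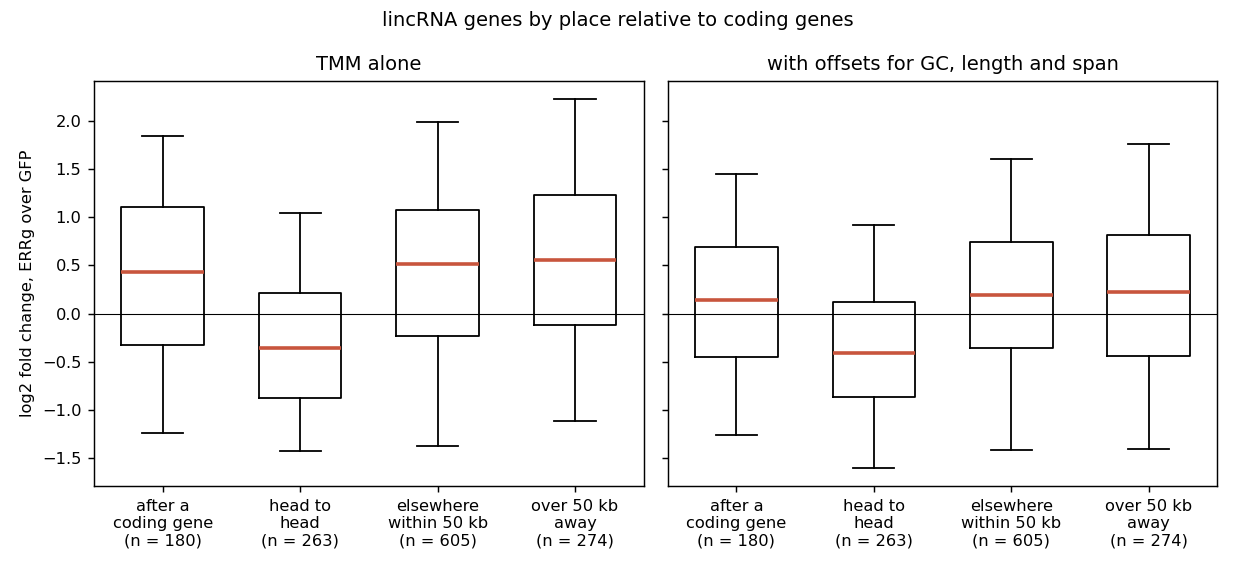
Log2 fold change (ERRg over GFP) of tested lincRNA genes by place relative to coding genes, without (left) and with (right) offsets for GC content, exon length and gene span; red lines are medians, boxes the quartiles and whiskers the 5th and 95th percentiles. The head-to-head genes have the lowest median in both panels, -0.36 and -0.41 (with library totals in place of TMM factors the former is 0.04).

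Members were next paired with their coding neighbours. Over 170 pairs with both genes tested, Spearman's rho between the 2 log2 fold changes was 0.61 after a coding gene, and over 256 head-to-head pairs it was 0.34. With the nearest coding gene it was 0.43 over 536 pairs elsewhere within 50 kb and 0.39 over 213 pairs over 50 kb apart, both above the head-to-head value. Pairs share libraries, base composition and position, and the rho values describe these pairs only. Of 90 after-gene pairs with both genes called, 41 were both higher, 30 both lower, 15 had the lincRNA higher and the coding gene lower, and 4 the reverse. The lincRNA had the higher value in 140 of the 170 pairs (medians 0.45 and -0.13). Of 127 head-to-head pairs with both called, 25 were both higher, 64 both lower, 13 had the lincRNA higher and the coding gene lower and 25 the reverse, and the lincRNA had the higher value in 112 of 256. Over 50 kb apart it was higher in 143 of 213. Differences between the rho values were not tested.

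AC015813.1, 8510 bases after SRSF1, which encodes a splicing factor, read 12.9, 9.04, 12.1 and 12.9 CPM in the GFP and 42.7, 44.4, 42.1 and 41.99 CPM in the ERRg libraries (1.87 ± 0.11 (SE), edgeR adjusted p = 4.51e-11). SRSF1 rose by 0.45. AC104695.2, 8633 bases after FOSL2, a gene of the AP-1 family, read 0.749, 0.897, 0.792 and 0.864 CPM against 3.95, 2.97, 3.28 and 3.78 CPM (2.07 ± 0.20 (SE)). FOSL2 had 0.21. AC107068.1, 2894 bases after NFXL1, rose by 1.17 and NFXL1 by 0.54. CORIN, a nearer coding gene 2016 bases from AC107068.1, was lower (-0.40, and -0.82 with the offsets). In these 3 pairs the lincRNA rose more than the gene before it. The pairs were picked by the smallest p of the lincRNA, which favours that order, so it describes no other pairs. AC002401.4, 3584 bases after the integrin gene ITGA3 and 90 bases from PDK2, read 16.2, 18.01, 16.2 and 19.3 CPM against 5.97, 6.61, 7.51 and 6.18 CPM (-1.41 ± 0.11 (SE)). ITGA3 had -1.65 and PDK2 -1.47, so all 3 neighbours were lower. With the offsets AC002401.4 had -2.14, ITGA3 -0.58 and PDK2 -0.34.

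**Figure D4:**
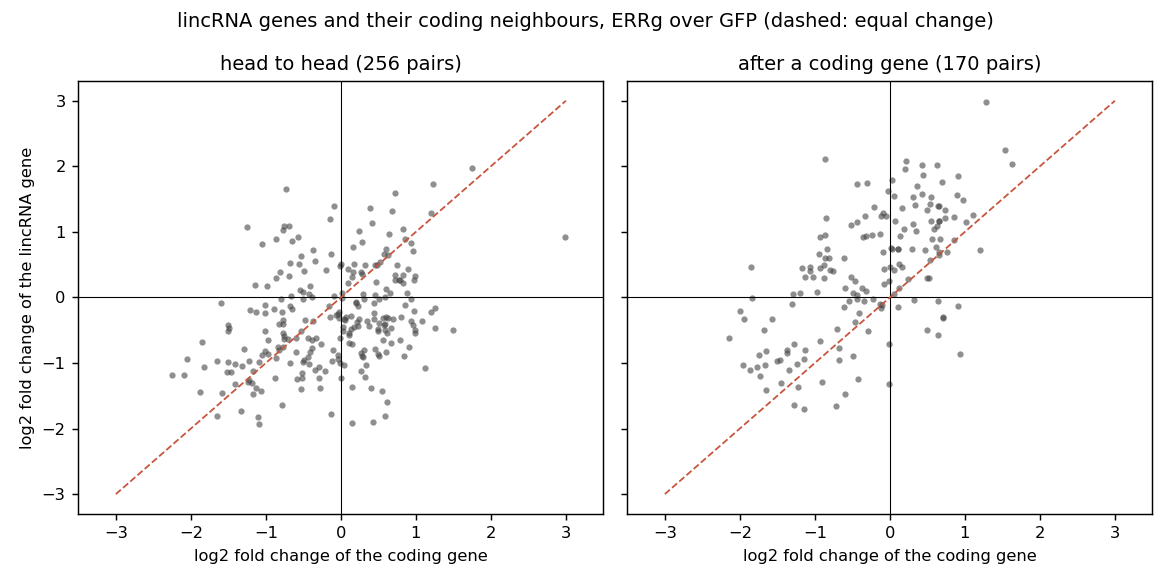
Log2 fold change (ERRg over GFP) of a lincRNA gene (vertical) against that of its coding neighbour (horizontal) for 256 head-to-head pairs (left) and 170 pairs in which the lincRNA begins after the coding gene's 3′ end (right); each point is 1 pair and the dashed line marks equal change. On the right, 140 of 170 points lie above the dashed line, and on the left 112 of 256.

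Fold changes of members were lower at higher GC content of the longest transcript. Members were split into 5 ranges of GC content with equal numbers of genes. In the range with the lowest GC content (27.9 to 39.9%), 180 of 265 members were higher and 12 lower, with a median of 0.94. In the range with the highest (52.9 to 73.3%), 44 of 265 were higher and 124 lower, with a median of -0.51. The ranges between had medians of 0.67, 0.33 and -0.01. Coding genes in the same GC ranges had medians of 0.58, 0.24, -0.17, -0.56 and -1.10, so members lay above coding genes in each range while following the same order. Spearman's rho with GC content was -0.48 over the 1322 members and -0.70 over 13433 coding genes. Genes share libraries and are not independent replicates. Exon length (rho -0.03) and mean abundance (rho 0.01) showed no such order among members, and gene span a weak one (rho 0.18). With the offsets, which remove the order by construction, the medians of the 5 ranges lay between -0.01 and 0.12. The classes of place differ in GC content: the median was 48.7% head to head, within the range of median -0.01, and 43.6% far from coding genes, within the range of median 0.67. Apart from the offset values above, its part in the difference between these classes was not tested.

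**Figure D5:**
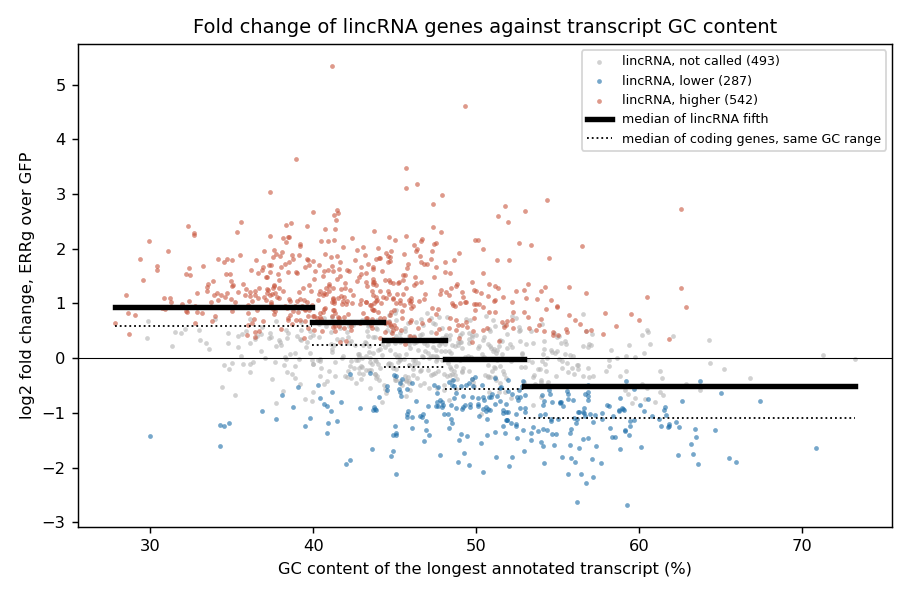
Log2 fold change (ERRg over GFP) of 1322 tested lincRNA genes against the GC content of the longest transcript (%); points are genes, coloured by their edgeR call. Solid bars are medians of lincRNA genes in the 5 GC ranges and dotted bars medians of coding genes in the same GC ranges. The solid bars step down from 0.94 to -0.51 and each lies above its dotted bar.

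Promoter windows were found for 512 members, 422 of them tested. Of 121 members whose 300-base window held at most 4 CpGs, as in LINC02024, 60 were higher (49.6%) and 15 lower (12.4%), with a median of 0.59. Of 95 with 5 to 14, 37 were higher and 25 lower (median 0.25). Of 206 with 15 or more, as in the other 3 windows printed above, 44 were higher (21.4%) and 78 lower (37.9%, near the 35.9% of all genes), with a median of -0.21. With the offsets the 3 medians were 0.24, 0.25 and -0.14, which puts the first 2 classes side by side. Among the CpG-rich windows, 112 head-to-head members had a median of -0.34 and the 94 others -0.04. The element to which estrogen-related receptors are known to bind, TCAAGGTCA, searched on both strands, was found in the windows of 2 members (0.391% of 512), against 0.359% of all 27305 windows. The 2 were LINC00662, higher by 0.42 as above, and LINC02102, not called (0.39 ± 0.36 (SE), edgeR adjusted p = 0.327). The shorter AAGGTCA, which is part of the former, was in 6.05% of the members' windows and 3.97% of all windows. It was in 9.22% of 141 windows of members called higher, 6.13% of 163 not called and 0.847% of 118 called lower. These windows also differed in GC content (medians 50, 61 and 65.3%), whose part was not tested. A match is a run of letters, not a bound site.

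Genes for the machinery that makes, ends and removes such RNAs moved in both directions. Of 23 tested genes of the nuclear RNA exosome and its adaptors, which degrade many lincRNAs, 9 were higher and 10 lower (median 0.01). EXOSC5 (-1.87) and EXOSC4 (-1.79), core subunits, and ZC3H18 (-0.92), which links capped RNA to the exosome, had the smallest p-values. Of 28 genes for transcription termination and the Integrator complex, 8 were higher and 13 lower, among them INTS5 (-1.91) and INTS1 (-1.51), while INTS6 rose by 1.24. Of 15 genes for cap binding and RNA export, 4 were higher and 8 lower, among them the export factors ALYREF (-1.46), DDX39A (-1.43) and THOC6 (-1.73). These counts stand beside 38.8% higher and 35.9% lower over all genes tested. With the offsets they were 8 and 11, 6 and 11, and 5 and 8, and ZC3H18 was no longer called (-0.11). The named values also shrank, to -1.01 for EXOSC5, -1.36 for EXOSC4, -0.86 for INTS5, -0.21 for INTS1, 0.45 for INTS6, -0.92 for ALYREF, -0.39 for DDX39A and -0.94 for THOC6.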

How the data were processed

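The authors deposited 1 table of raw read counts per gene, with 5 summary lines that name no gene. These lines stayed out of library sizes and tests, and the share of reads assigned to no feature is given with the results. The submitters' processing notes name STAR 2.7.8a, HTSeq 0.11.3, Trim Galore 0.6.6, CASAVA, DESeq2 and GRCh38, without an order. Counting of this kind drops reads with several placements, so genes with near-identical copies lose or share reads.

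Gene types, positions and transcripts came from GENCODE release 29 (GRCh38). One edgeR 4.0.16 (R 4.3.3) quasi-likelihood fit over all 8 libraries and all genes passing filterByExpr, with TMM factors and group as the only term, gave fold changes, and p-values were adjusted by Benjamini-Hochberg over all genes tested. A gene was called at an adjusted p under 0.05. Fold changes are ERRg over GFP and CPM uses TMM library sizes; members with few counts have the widest errors. The SE is the absolute log2 fold change over the root of the F statistic. Offsets were splines (4 degrees of freedom) of each library's log2 CPM (prior count 2) on GC content, log exon length and log span. Alternatives were DESeq2 1.42.0, limma-voom (limma 3.58.1), other scalings and filters, a replicate block and leaving out each library.

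Named were the 10 largest changes each way among called members of average log2 CPM of at least 0 whose groups did not overlap, the 8 most abundant per kilobase, the members of a studied list, the 6 microRNA hosts and the 4 after-gene pairs with the smallest p, and the 3 genes of smallest p in each pathway list; others are examples chosen after their values were seen. The members and all lists were chosen with earlier results of these data known. On simulated counts the fit recovered 81 of 98 genes changed by 1 log2 unit and 90 of 90 changed by 2, and called 14 of 21353 unchanged genes. The simulation changed few genes and held no GC trend, unlike the data, so these rates need not hold here.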

Additional observations from a re-analysis of the deposited data

Results flagged for a closer look

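In 4 of 102 groups of 4 libraries examined for the named genes, 1 library stood apart from the other 3 by Dixon's criterion; chance flags about 1 in 20 groups. DIRC3-AS1 was at 1.38 CPM in ERRg library 4, where the other ERRg libraries lay between 2.06 and 2.18. In ERRg library 3, AC090023.1 was at 26.1 CPM (the others 29.9 to 30.3), HIF1A-AS3 at 19.9 CPM (23.1 to 23.5) and MIR222HG at 47.6 CPM (54.9 to 55.2). All 4 were the lowest of their group and lay above every GFP library.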

How the results depend on the processing

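The excess of higher over lower calls held in every setting run, and its size did not. As reported, 542 were higher and 287 lower, with a median log2 fold change of 0.34. The median was 0.31 with DESeq2's Wald test and with its size factors, 0.25 without a filter, 0.36 without mitochondrially encoded genes, 0.38 with totals of at least 200 (359 higher, 186 lower of 753 tested), 0.56 with at least 1 CPM in 4 libraries (159 lower), 0.64 with upper-quartile factors (682 higher, 180 lower) and 0.74 with library totals (734 higher, 146 lower). It was 0.068 with offsets, 0.066 with offsets and the replicate block, and 0.30 without members that overlap a coding gene, an alternative chosen after seeing the data. Against a log2 fold change of 1 the counts were 156 and 45. Library totals and upper-quartile factors moved the median of all genes to 0.50 and 0.40 from 0.09, so members lay 0.24 to 0.25 above all genes under each of these scalings. Leaving out 1 library at a time gave 504 to 541 higher, 268 to 305 lower and medians from 0.29 to 0.34. Starts up to 50 kb after a coding gene, in place of 10 kb, gave a median of 0.29 (164 higher, 103 lower of 443).

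Some values turned sign. With library totals the head-to-head median was 0.044, LINC00467 0.11 and LINC00461 0.37; with upper-quartile factors LINC00467 had 0.0098 and LINC00461 0.27, and with at least 1 CPM in 4 libraries LINC00461 had 0.08 (as reported -0.03, not called). With offsets CYTOR had -0.0067, CRNDE -0.050 and LINC00662 -0.178, and with the replicate block added -0.0044, -0.047 and -0.177. The hosts MIRLET7BHG, MIRLET7A1HG, MIR99AHG, MIR137HG, MIR9-3HG and MIR4500HG, and the coding genes KIRREL3, IRX5, FAM155A and MON2, also turned sign with offsets, most as given with the results. The cause was not tested, and GC content, exon length and span were removed together. Libraries with the same replicate number did not deviate together (correlations 0.088, -0.158, -0.080 and -0.052), so the numbers pair nothing; with the replicate block the counts were 530 higher and 276 lower and the median 0.34. Depth limited the 356 untested members, whose 110 reads at most leave small changes undetectable.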
